A study of Danio rerio with 7 samples.

Results

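The stressed cells are 853 of the 2678 melanoma cells (31.9%, exact Clopper-Pearson 95% interval 30.1 to 33.7) and of the 3968 cells in all (21.5%, 20.2 to 22.8) in a single-cell RNA-seq library of zebrafish melanoma. They were taken as every cell that the deposited annotation assigns to the stressed tumor type. The other 4 melanoma states held 579 melanocytic, 333 proliferative, 333 invasive and 580 inflammatory cells, and the tumor microenvironment (TME) held 1290. The annotation gives only the label, and the paper cites *gadd45ga*, *ddit3*, *fosb* and *junba* as examples of genes enriched in the state.

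The tumors were grown in adult casper fish (*mitfa*-/-;*mpv17*-/-) that carried mitfa:BRAFV600E and *p53*-/-. The fish were electroporated with the MinicoopR-tdT plasmid, which returns *mitfa* to cells that take it up, with mitfa:Cas9, with guides against *ptena* and *ptenb* and with Tol2 (Transgene Electroporation in Adult Zebrafish, TEAZ). Tumors and the tissue next to them, from 3 male and 3 female fish, were dissociated with Liberase, sorted to remove debris and doublets and run as 1 library. The TME cells come from the same fish, so they also lack *p53* and chromosomal *mitfa*, and plasmid and chromosomal *mitfa* transcripts cannot be told apart. The *mitfa* promoter restricts BRAFV600E and Cas9 to the pigment cell lineage.

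Cells answer many insults through a small set of fast pathways. Immediate early genes, among them the AP-1 genes of the Fos and Jun families, are transcribed within minutes of a stimulus from factors already present in the cell. The integrated stress response slows translation by phosphorylation of eIF2α and raises ATF4 and CHOP, the latter encoded by *ddit3*, while the Gadd45 proteins are small proteins induced by stress and DNA damage. In zebrafish and human melanoma, cells high in such genes have been described beside melanocytic, neural crest-like and dividing cells.

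Because all fish were pooled into 1 library, no state has a replicate, and the states were drawn from the same expression values that are compared here. All differences between states are therefore descriptions, with no test. Levels are corrected counts per cell, which the authors made from raw UMI counts with SCTransform, a model that takes out the effect of sequencing depth. Cells held 5400 to 9687 corrected counts (median 7712.5). A log2 ratio compares the gene's share of all corrected counts, with 0.5 added to each sum, between stressed cells and another group, over genes with at least 50 corrected counts in both together. A value of 1 is a 2-fold difference. Intervals on shares cover counting error only.

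Stressed cells were not shallow. Their median of raw UMIs was 10341 (quartiles 7124 and 14342, range 477 to 53264), against 9768 in melanocytic, 15141 in proliferative, 7979 in invasive, 8546 in inflammatory and 5165.5 in TME cells. They held a median of 2327 genes and a median mitochondrial share of 1.03%, and 8 of them were above 10%. Their median ribosomal share was 35.7%, against 30.6% in melanocytic, 32.8% in proliferative, 26.7% in invasive, 34.2% in inflammatory and 20.6% in TME cells. Only 20 stressed cells (2.34%) fell under 2000 raw UMIs, against 93 melanocytic cells (16.1%) and 325 TME cells (25.2%). Results were repeated with cells of at least 2000 raw UMIs, which left 833 stressed cells.

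The 4 marker genes were each higher on average in stressed cells than in the other 4 melanoma states, but none of the 4 was 2-fold higher than in all of them. *gadd45ga*, a Gadd45 gene linked to growth arrest, stood at 6.37 corrected counts per stressed cell, against 3.57 in melanocytic, 1.65 in proliferative, 2.56 in invasive, 2.43 in inflammatory and 1.31 in TME cells. Its log2 ratios were 0.79, 1.96, 1.27, 1.36 and 2.18 in that order. *ddit3* stood at 7.62, against 2.69, 1.78, 3.48, 5.37 and 7.15. *fosb*, a subunit of AP-1, stood at 13.7 against 5.59, 4.13, 10.6, 10.3 and 13.6, and *junba*, a Jun partner of Fos, at 14.4 against 6.38, 6.18, 10.2, 9.20 and 13.7. Against the TME the log2 ratios of *ddit3*, *fosb* and *junba* were -0.01, -0.08 and -0.02, so *gadd45ga* was the only one of the 4 whose level also set stressed cells apart from the TME. The paper names the marker genes as enriched in this same state of the same cells. Higher means than in the other melanoma states were therefore given in advance, and they cannot test the label. Against the TME, 3 of the 4 genes did not set stressed cells apart. Against the melanoma state nearest to stressed cells for each gene, the log2 ratios were 0.79 for *gadd45ga* (melanocytic), 0.48 for *ddit3* (inflammatory), 0.32 for *fosb* (invasive) and 0.45 for *junba* (invasive).

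**Figure D1:**
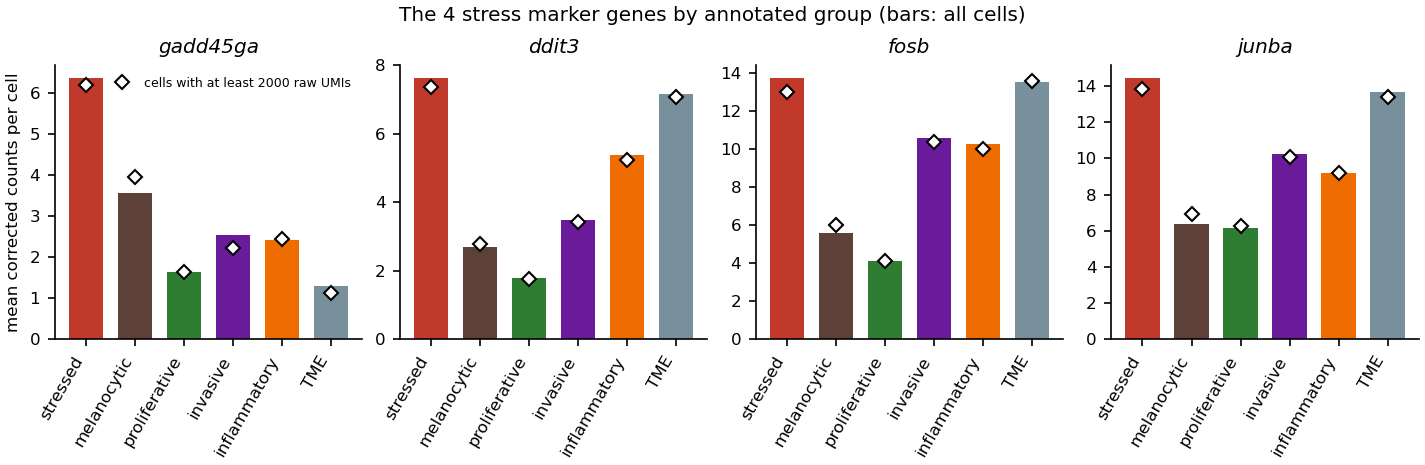
Mean corrected counts per cell of the 4 marker genes in the 5 melanoma states and the TME, as bars over all cells and diamonds over cells of at least 2000 raw UMIs, with no error bars because each state comes from 1 library. Stressed cells have the highest melanoma bar in all 4 panels, while the TME bar is close to it for ddit3, fosb and junba and far under it for gadd45ga.

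The markers were spread unevenly over the stressed cells. Among the 833 cells of at least 2000 raw UMIs, the quartiles of *gadd45ga* were 1, 3 and 7 corrected counts with a highest cell at 91. Those of *ddit3* were 1, 3 and 9, of *fosb* 2, 6 and 15, and of *junba* 5, 9 and 17. The means above, taken over all cells, therefore lie above the median and under the upper quartile of each gene.

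As shares of cells with any corrected count, the markers overlapped widely between states. *gadd45ga* was above 0 in 81.4% of stressed cells (78.6 to 84.0), against 67.3% of melanocytic, 54.3% of proliferative, 58.1% of invasive, 61.2% of inflammatory and 33.2% of TME cells. *ddit3* was above 0 in 84.8% (82.1 to 87.1) of stressed and 84.5% of TME cells. *fosb* was above 0 in 83.4% (80.7 to 85.9) of stressed cells, which was below the 84.8% of invasive and the 91.1% of TME cells. *junba* was found in 95.8% (94.2 to 97.1), against 81.9% to 91.4% elsewhere. All 4 genes together were above 0 in 510 of 833 stressed cells (61.2%, 57.8 to 64.5), against 38.3% of melanocytic, 22.8% of proliferative, 36.5% of invasive, 42.6% of inflammatory and 27.4% of TME cells. Only 4 stressed cells (0.480%) had none of them.

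Marker levels moved with raw depth inside the stressed state. In its 20 cells under 2000 raw UMIs, *fosb* averaged 43 corrected counts, in 91 cells of 2000 to 5000 it averaged 33.0, in 680 cells of 5000 to 20000 it averaged 11.2, and in 62 cells above 20000 it averaged 4.5. The same order held for the other markers. *gadd45ga* went from 13.6 and 13.4 to 5.54 and 2.81, *ddit3* from 18.2 and 14.8 to 6.75 and 3.29, and *junba* from 39.9 and 29.1 to 12.21 and 8.98. Melanocytic cells did not share this order. Their *fosb* averaged 3.41, 1.25, 6.35 and 8.19 in the same depth classes (93, 79, 278 and 129 cells), and their *gadd45ga* 1.51, 2.03, 4.54 and 3.92. Other groups shared it in part. In inflammatory cells *ddit3* averaged 7.87, 8.78, 5.04 and 1.31. In invasive cells *fosb* averaged 14, 14.9, 9.30 and 8.06 and *gadd45ga* 7.04, 1.72, 2.44 and 1.22. In TME cells *fosb* averaged 13.4, 15.6, 13.2 and 9.11 and *gadd45ga* 1.88, 1.17, 1.17 and 0.592.

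The contrast between stressed cells and the other states therefore depended on depth, which is a comparison chosen after the values were seen. Over cells of 2000 to 5000 raw UMIs, the smallest log2 ratio of *gadd45ga* against the other 4 melanoma states was 1.99, that of *fosb* 1.12 and that of *junba* 1.16. There *ddit3* averaged 14.8 in stressed cells and 8.78 in inflammatory cells, the next highest melanoma state. Over cells above 20000, the smallest log2 ratio was -0.50 for *gadd45ga*, -0.11 for *ddit3* and -0.89 for *fosb*, so in the deepest cells at least 1 other melanoma state was higher for each of these 3. In that class *junba* averaged 8.98 in stressed and 9.06 in invasive cells. The class held 62 stressed but only 18 invasive cells. For *ddit3* the invasive cells (3.61) were the only melanoma state above the stressed cells (3.29). The part that depth, or the correction for it, plays in the state was not tested.

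**Figure D2:**
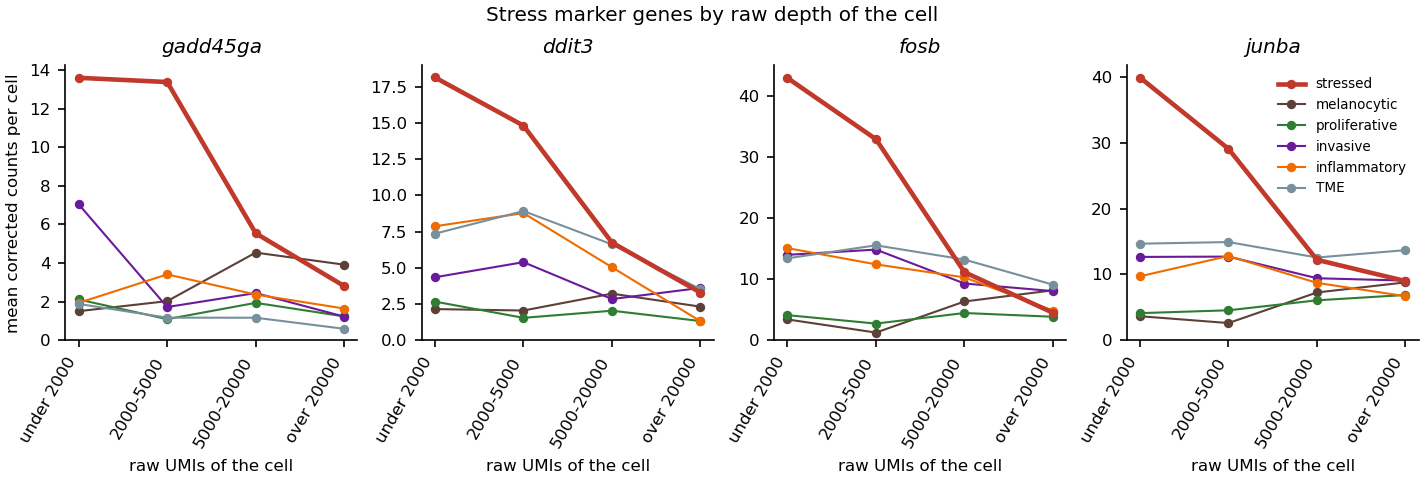
Mean corrected counts per cell of the 4 marker genes (y axes) in 4 classes of raw UMIs per cell (x axes), 1 line per melanoma state and TME. The stressed line starts highest in shallow cells and descends with depth, from 43 to 4.5 for fosb, while the melanocytic line lies low in shallow cells and is higher in deep ones.

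Immediate early genes as a list were well above their levels in melanocytic and proliferative cells and close to their levels in invasive and inflammatory cells. Of 49 tested members, 24 were 2-fold higher and 0 lower than in melanocytic cells, where 13.1% of all 9602 tested genes were 2-fold higher and 6.63% lower. Against proliferative cells 23 of 49 were higher and 1 lower, beside 4.9% and 8.56% of 9554 genes. Against invasive cells only 4 of 50 were higher and 7 lower (all genes 5.14% and 6.95% of 9301), against inflammatory cells 6 of 48 were higher and 9 lower (13% and 7.83% of 9807), and against the TME 8 of 54 were higher and 15 lower (35.5% and 22.5% of 11817). The list medians were 0.98, 0.95, -0.04, 0.17 and -0.32, beside medians over all genes of 0.23, -0.06, -0.02, 0.26 and 0.55. These shares and medians over all genes are the background for every list described below.

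The summed level of the list says the same in counts. It averaged 215 corrected counts per stressed cell, against 98.2 in melanocytic, 96.4 in proliferative, 203 in invasive, 189 in inflammatory and 233 in TME cells. Within stressed cells of at least 2000 raw UMIs it ran from 1 to 1861, with quartiles of 96, 151 and 226. Its median over cells went from 555.5 under 2000 raw UMIs to 350, 150 and 100.5 in the deeper classes, whereas in melanocytic cells it went from 51 and 27 to 74.5 and 119. Above 20000 raw UMIs the invasive median (128, over 18 cells), the melanocytic median (119) and the TME median (143.5) all lay above the stressed one.

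Single members separated into a pair of patterns. *egr1*, a zinc-finger factor induced by growth factors and stress, was higher than in every other group, at 3.41 corrected counts per cell against 1.87, 1.27, 1.63, 1.39 and 2.11. Above 20000 raw UMIs this order turned, with *egr1* at 1.31 in stressed cells against 3.1, 1.46, 1.72, 1.88 and 1.21. *jun*, at 17.5, was far above melanocytic (4.07) and proliferative cells (5.68) but below invasive (20.6), inflammatory (22.1) and TME cells (17.7). *btg2*, an antiproliferative early gene, did likewise at 13.7 against 4.73, 5.87, 14.4, 14.3 and 16.0. *fosab*, the fish *c-fos*, stood at 24.1 beside 23.9 in invasive and 28.7 in TME cells. *jun* and *btg2* thus placed stressed, invasive, inflammatory and TME cells together, while *egr1* and *gadd45ga* did not. Like *egr1*, the early genes *dusp1*, *klf2a* and *plk2b* were at least 1.5-fold higher than in every other melanoma state. *ccn1*, a secreted YAP target, went the other way at 0.14, against 0.169 in melanocytic, 0.718 in invasive and 3.72 in TME cells.

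In the Gadd45 family all 6 genes were tested. Of these, 2 were 2-fold higher than in melanocytic, 4 than in proliferative, 2 than in invasive, 4 than in inflammatory and 2 than in TME cells, and 1 was 2-fold lower than in melanocytic and in TME cells, with list medians of 0.71, 1.71, 0.63, 1.08 and 0.34. Beside these counts 13.1%, 4.9%, 5.14%, 13% and 35.5% of all genes were higher, so the count against the TME was near the background. With at least 2000 raw UMIs 1 gene in place of 2 was 2-fold higher than in invasive cells. *gadd45ba* had the highest level, at 14.0 corrected counts against 3.14, 3.39, 13.2, 6.84 and 13.2, but 29.9% of its stressed counts lay in 10 cells. *gadd45bb* stood at 1.81 against 0.44, 0.619, 1.38, 0.793 and 1.05. The family sum had quartiles of 6, 12 and 22 over stressed cells and reached 1917 in 1 cell.

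By its list median the integrated stress response was higher than in melanocytic and proliferative cells, level with invasive cells and lower than in inflammatory and TME cells. Of its tested members, 5 of 25 were 2-fold higher and 2 lower than in melanocytic cells, 5 of 25 higher and 3 lower than in proliferative, 2 of 24 higher and 0 lower than in invasive, 1 of 27 higher and 8 lower than in inflammatory, and 4 of 30 higher and 11 lower than in TME cells. The share of all genes that was 2-fold higher was 13.1%, 4.9%, 5.14%, 13% and 35.5% in the same order, so the counts against inflammatory and TME cells lay well under it. List medians were 0.48, 0.23, 0.01, -0.25 and -0.14, and the summed list averaged 30.6 corrected counts against 16.6, 17.2, 22.5, 34.2 and 51.8. *ppp1r15a*, which encodes GADD34, the phosphatase subunit that switches the response off, was higher than in each other melanoma state at 1.48 against 0.563, 0.381, 0.733 and 0.919, and level with the TME (1.47). *atf3*, a stress-induced repressor that is also an early gene, stood at 7.03 against 1.68, 4, 4.80, 7.75 and 2.73. *atf4b*, a fish gene for ATF4, the factor at the head of the response, stood at 6.28 against 2.72, 3.12, 5.30, 7.29 and 4.72.

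Several other members were lower than in at least 1 other group. *psat1*, an enzyme of serine synthesis, stood at 0.128 against 0.116, 0.528, 0.174, 0.467 and 0.0403, and *phgdh*, the first enzyme of that path, at 0.0352 against 0.057, 0.21, 0.027, 0.345 and 0.0682. *mthfd2*, a mitochondrial folate enzyme, stood at 0.178 against 0.316, 0.375, 0.207, 1.25 and 0.161. *chac1*, which breaks down glutathione, stood at 0.638 against 0.344, 0.456, 0.895, 0.74 and 3.86, and *trib3*, a pseudokinase that restrains ATF4, at 0.32 against 0.349, 0.273, 0.486, 0.686 and 0.978. None of these 5 was higher than in all other groups. *ddit3* and *ppp1r15a* were higher than in inflammatory cells while the list median was lower.

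Chaperones and folding genes of the endoplasmic reticulum were not higher. Of 25 tested, none was 2-fold higher or lower than in melanocytic cells, and 4 were lower than in proliferative and 3 lower than in invasive cells, with none higher in either comparison. Against inflammatory cells 1 was higher, and against the TME 1 of 26 was higher and 5 lower. List medians were -0.05, -0.44, -0.70, 0.31 and -0.49. *calr*, the chaperone calreticulin, stood at 0.335 against 0.442, 0.691, 0.598 and 0.4 in the other melanoma states, and *pdia3*, a disulfide isomerase, at 0.734 against 1.28, 1.33, 1.32 and 0.936.

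Cytosolic heat shock genes held a few members above their melanocytic and proliferative levels. Of 29 tested, 7 were 2-fold higher and 1 lower than in melanocytic cells (13.1% of all genes were higher), and 6 higher and 1 lower than in proliferative cells (4.9%). With at least 2000 raw UMIs only 3 were higher than in proliferative cells, and that median turned from 0.10 to -0.06. Against invasive cells 0 of 30 were higher and 2 lower, against inflammatory cells 5 of 31 higher, and against the TME 11 of 30 higher and 1 lower. List medians were 0.18, 0.10, 0.17, 0.53 and 0.87. *dnajb1b*, a co-chaperone induced by heat, stood at 1.6 against 0.326, 0.345, 1.27, 2.01 and 2.68, and was above 0 in 164 stressed cells. *hsp70.1*, an inducible HSP70, was above 0 in 43 stressed cells, and 68% of its stressed counts came from 10 of them. *hsp90ab1*, a constitutive chaperone, stood at 42.9, the highest of the 6 groups (32.2, 34.3, 36.3, 28.7 and 21.8).

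Lists for other stresses gave little that was shared against all states. For the oxidative stress list the medians were -0.42, -0.01, 0.04, 0.20 and 0.02. Of 31, 31, 31, 31 and 32 genes tested, 2, 5, 0, 7 and 6 were 2-fold higher and 6, 6, 2, 1 and 8 lower. *txn*, thioredoxin, was lower than in every other group at 0.0926 against 0.318, 0.571, 0.246, 0.843 and 1.69. For p53 targets the medians were 0.57, 0.63, 0.26, -0.23 and -0.22, in fish that lack p53. Of 15, 16, 14, 14 and 19 genes tested, 4, 4, 3, 2 and 5 were higher and 3, 2, 1, 5 and 6 lower. *cdkn1a*, the p21 inhibitor that p53 induces, was above 0 in 11 stressed cells (mean 0.0176). For hypoxia the medians were 0.07, 0.33, -0.29, 0.40 and -0.14. Of 27, 26, 24, 27 and 28 genes tested, 0, 6, 1, 6 and 7 were higher and 6, 1, 2, 2 and 7 lower. Beside these 3 lists, 13.1%, 4.9%, 5.14%, 13% and 35.5% of all genes were higher and 6.63%, 8.56%, 6.95%, 7.83% and 22.5% lower.

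**Figure D3:**
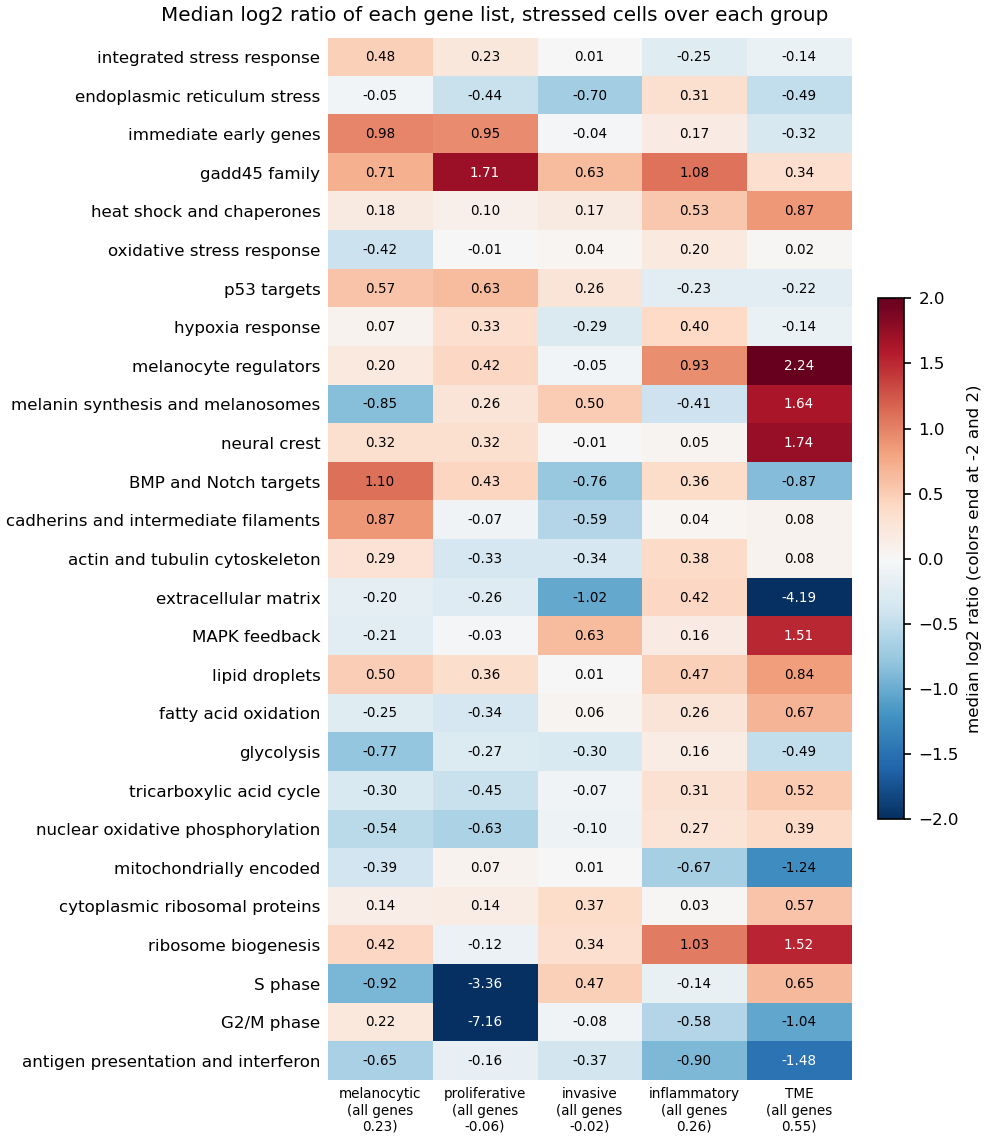
Median log2 ratio of stressed cells over each of the other 4 melanoma states and the TME for 27 lists of pathway genes, 1 row per list and 1 column per comparison, with the median of all genes under each column and colors that end at -2 and 2. Immediate early genes are at 0.98 and 0.95 in the first 2 columns and at -0.04 against invasive cells, and the G2/M list is at -7.16 against proliferative cells.

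Across all genes, stressed cells stood nearest to the proliferative and invasive states by the number of genes 2-fold apart and furthest from the TME. Against melanocytic cells 1257 genes were higher and 637 lower, against proliferative 468 and 818, against invasive 478 and 646, against inflammatory 1271 and 768, and against TME 4191 and 2664. With at least 2000 raw UMIs the counts were 1000 and 697, 458 and 829, 449 and 630, 1163 and 793, and 3805 and 2633. Of the genes called higher over all cells, 76.3% were also called in the deeper cells against melanocytic cells, and 87.4% to 92.9% in the other 4 comparisons. For genes called lower the shares were 92.6% to 98.8%. The correlation of mean profiles over 7434 genes, as a description of levels that share one library, was 0.920 with invasive, 0.915 with melanocytic, 0.899 with proliferative, 0.877 with inflammatory and 0.793 with TME cells.

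**Figure D4:**
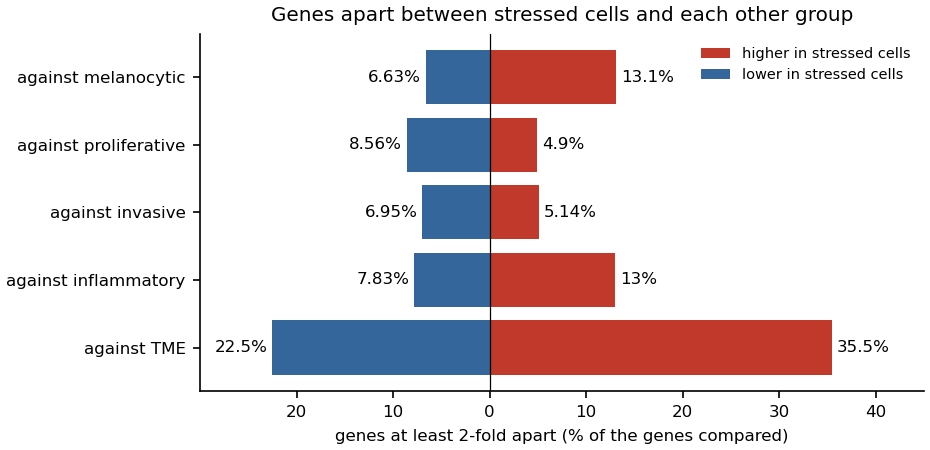
Percent of the genes compared that were at least 2-fold higher (right, red) or lower (left, blue) in stressed cells than in each other group, over all cells. The TME comparison has the longest bars, 35.5% higher and 22.5% lower, and the proliferative and invasive comparisons have more genes lower than higher.

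Only 126 of 11776 genes (1.07%) were 1.5-fold higher in stressed cells than in every other melanoma state, and 201 (1.71%) were lower than in every one. Of the 126, 24 carry clone-like names, 13 had at least 50% of their stressed counts in 10 cells, 85 were also 2-fold above the TME and 12 were 2-fold below it. With at least 2000 raw UMIs, 97 and 223 genes met the rule, of which 89 and 180 did so over all cells. Among the stress lists the 126 took in *ppp1r15a* (1 of 30 genes of the integrated stress response), *egr1*, *dusp1*, *klf2a* and *plk2b* (4 of 51 immediate early genes), *gadd45aa* and *gadd45ga* (2 of 6), *gclm* (1 of 31 oxidative stress genes), *bbc3*, a cell death gene that p53 induces, with *plk2b* and *gadd45aa* (3 of 19 p53 targets), *hif1al* (1 of 28 hypoxia genes), and none of 33 heat shock and 25 endoplasmic reticulum genes. *ddit3*, *fosb* and *junba* did not meet it. The stress lists hold few of the 11776 genes, so most of the 126 lay outside them by the size of the lists alone. The share over all genes, beside the list counts above, was 1.07%.

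Of the 201 lower genes, 31 belonged to the S phase and G2/M lists (9 of 48 and 22 of 59 genes, beside 1.71% of all genes). Most G2/M genes reached the minimum through proliferative cells, so their ratios to the other states can rest on few counts. *cenpe* had 287 corrected counts in proliferative cells, but 9 in melanocytic and 5 in invasive cells. Of the 201, 78 had at least 10 corrected counts in each of the other 4 states, and 21 had none in stressed cells and none in at least 1 other state, where the ratio follows from the added 0.5 and the totals. Of 38 antigen presentation and interferon genes tested, 7 were among them, *tap1*, *tapbp.1*, *cd74a*, *mxa*, *mxe*, *rsad2* and *ccl19a.1*.

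The leading genes by their smallest log2 ratio included transport, cytoskeleton and signaling genes. *slc6a9*, the glycine transporter GlyT1, stood at 0.325 corrected counts per stressed cell against 0.0864, 0.0541, 0.0601, 0.0172 and 0.0295, with log2 ratios of 1.85, 2.56, 2.36, 4.14 and 3.35. It was above 0 in 172 stressed cells, and in 20.6% of the deeper ones against 1.28% to 7.20% in the other groups. *tmsb*, a thymosin beta that binds actin monomers, stood at 2.73 against 0.0829, 1.05, 1.01, 0.533 and 0.0395, and was above 0 in 39.0% of the deeper stressed cells against 2.28% to 29.4% elsewhere. *cd2ap*, an adaptor between membrane receptors and actin, stood at 1.51 against 0.622, 0.709, 0.264, 0.157 and 0.554. Counts of *cd2ap* were above 0 in 415 stressed cells and those of *tmsb* in 327, while the median of each of these 3 genes over the deeper stressed cells was 0.

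Other leading genes were low or rested on few cells. *fabp1b.2*, a fatty acid binding protein of gut and liver type, had the highest smallest ratio (3.63), but it was above 0 in 12 stressed cells, 99.5% of its stressed counts lay in 10 of them, and its level in the TME was 2.02 against 0.498. Without those 10 cells its smallest log2 ratio was -3.76. *bco2b*, a carotenoid-cleaving oxygenase, stood at 0.566 against 0.104, 0.111, 0.033, 0.217 and 0.0062, with 41.2% of its stressed counts in 10 cells and a smallest ratio of 1.35, or 0.60 without them. *tenm1*, a teneurin of neuronal contacts, *mgat4b*, an enzyme that branches N-glycans, and *rapgef4*, an exchange factor activated by cyclic AMP, had smallest ratios of 1.29, 1.12 and 1.00 at levels of 0.176, 0.474 and 0.294. *mfap5*, a microfibril protein also used as a fibroblast marker, stood at 0.38, above the melanoma states (0.0276 to 0.165) and below the TME (1.24).

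**Figure D5:**
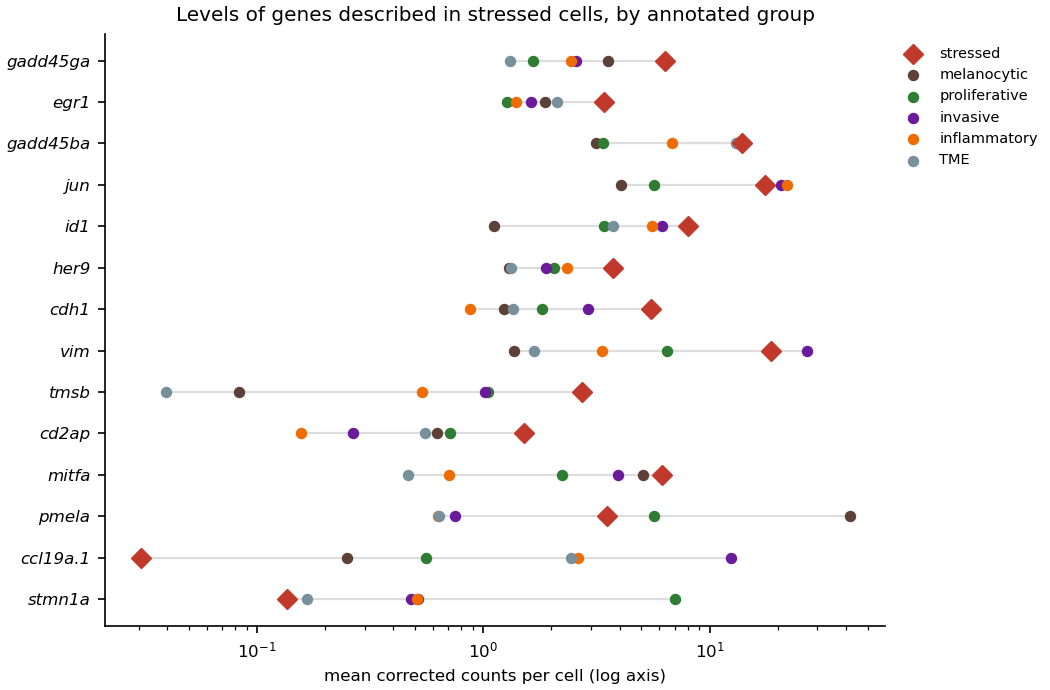
Mean corrected counts per cell, on a log axis, of 14 genes described in the text, with a diamond for stressed cells and a point for each other group. For cdh1 the stressed diamond lies at 5.53 and the other points between 0.874 and 2.90, for jun the invasive and inflammatory points lie above it, and for ccl19a.1 it lies at 0.0305 with the invasive point at 12.4.

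Among adhesion genes *cdh1* stood above every other group, while the median of its list was higher than in melanocytic cells and lower than in invasive cells. *cdh1*, E-cadherin, which joins epithelial cells and links melanocytes to keratinocytes, stood at 5.53 against 1.24, 1.81, 2.90, 0.874 and 1.36, with log2 ratios of 2.11, 1.62, 0.88, 2.63 and 1.93. It was above 0 in 87.2% (84.7 to 89.4) of deeper stressed cells, against 43.8%, 59.6%, 66.5%, 33.0% and 35.9%. *cdh1* is also a keratinocyte marker. Of the 21 keratinocyte markers tested against the TME, 20 were 2-fold lower and *cdh1* was the only one higher. Most of these markers reached the minimum through the TME, so their lower values were given in advance. The source of the *cdh1* transcripts was not tested. *vim*, vimentin, the intermediate filament of mesenchymal cells, stood at 18.8 against 1.37, 6.48, 27.1, 3.33 and 1.67. Across stressed cells *cdh1* and *vim* varied together (Spearman 0.45 over 833 cells of one library). Neither followed the depth order of the stress markers. *cdh1* averaged 2.4, 3.70, 5.84 and 5.87 from the shallowest to the deepest class, and *vim* 3.15, 11.4, 20.3 and 17.5.

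For the list of cadherins and intermediate filaments the medians were 0.87, -0.07, -0.59, 0.04 and 0.08. Of 22, 23, 24, 23 and 24 genes tested, 9, 3, 0, 8 and 6 were 2-fold higher and 0, 4, 9, 6 and 7 lower. *krt15*, a keratin of the basal epidermis, stood at 0.134 in stressed and 7.53 in invasive cells, *krt18a.1*, a simple-epithelium keratin, at 2.21 and 25.9, and *cdh2*, N-cadherin, at 0.914 and 2.73. For actin and cytoskeleton genes the medians were 0.29, -0.33, -0.34, 0.38 and 0.08, with 13, 2, 3, 8 and 17 of 46, 46, 46, 47 and 51 tested higher and 4, 8, 7, 6 and 12 lower. For the extracellular matrix they were -0.20, -0.26, -1.02, 0.42 and -4.19. Of 26, 27, 30, 30 and 44 matrix genes tested, 5, 3, 2, 8 and 6 were higher and 5, 4, 16, 9 and 30 lower. More were tested against the TME than against any melanoma state, so some passed the minimum through the TME. For those matrix genes a lower value against the TME was given in advance. *sparc*, a matricellular protein, stood at 0.24, against 8.86 in invasive and 10.9 in TME cells. High vimentin in stressed cells thus came with 16 of the 30 matrix genes tested 2-fold lower than in invasive cells.

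The pigment lineage was plain in stressed cells, with transcripts of melanin genes low beside melanocytic cells. *mitfa*, the master regulator of melanocytes, stood at 6.17 against 5.05, 2.24, 3.94, 0.703 and 0.462, and was above 0 in 89.9% of deeper stressed cells against 15.6% of TME cells. *sox10*, a neural crest factor upstream of it, stood at 3.55 against 2.75, 2.71, 3.39, 3.23 and 0.442, and *crestin*, a zebrafish neural crest marker, at 6.15 against 8.2, 5.95, 3.02, 7 and 0.754. *pmela*, the fibril protein of the melanosome, stood at 3.53 against 41.7 in melanocytic and 5.68 in proliferative cells. *tyrp1b*, *dct* and *tyr*, the enzymes of melanin synthesis, stood at 0.24, 0.158 and 0.196 against 23, 0.926 and 0.383 in melanocytic cells. Against melanocytic cells 0 of 31 melanin genes were 2-fold higher and 14 lower, and 8 of 12 melanophore markers were lower and 0 higher. The paper describes the melanocytic state by pigment genes of these same cells, so lower values against it were given in advance. The summed melanin genes averaged 18.5 corrected counts per stressed cell, against 94.3, 18.4, 11.4, 22.1 and 13.4, so they were not low beside proliferative, invasive or TME cells. Stressed cells thus held about as much *mitfa* as melanocytic cells and less than 0.5 times as much of 14 of the 31 melanin genes.

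In the remaining comparisons 2, 9, 7 and 20 melanin genes were higher and 4, 0, 8 and 4 lower than in proliferative, invasive, inflammatory and TME cells, and the list medians over the 5 comparisons were -0.85, 0.26, 0.50, -0.41 and 1.64. For regulators of the melanocyte lineage the medians were 0.20, 0.42, -0.05, 0.93 and 2.24, with 3, 4, 2, 8 and 14 of 16, 16, 16, 17 and 18 genes tested higher and 2, 0, 1, 1 and 2 lower. *kita*, the receptor for Kit ligand, stood at 0.524 against 1.11 in melanocytic cells and 0.0209 to 0.123 elsewhere. *tfap2e*, an AP-2 factor, stood at 2.42 against 4.25 in melanocytic and 1.21 in proliferative cells. For neural crest genes the medians were 0.32, 0.32, -0.01, 0.05 and 1.74, with 3, 4, 4, 5 and 13 of 19, 19, 18, 21 and 24 tested higher and 2, 2, 4, 9 and 7 lower. *foxd3*, which holds neural crest cells undifferentiated, stood at 0.399 against 4.62 in invasive cells. *zeb2a*, a zinc-finger factor of the neural crest, stood at 4.52 against 1.95, 2.71, 4.76 and 1.67 in the other melanoma states. *s100b*, a calcium-binding protein used as a melanoma marker in human patients, stood at 1.44 against 0.323, 1.01, 0.649, 0.35 and 0.0109.

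BMP and Notch response genes were higher than in melanocytic cells. Of 13 tested, 7 were 2-fold higher and 0 lower, beside 13.1% and 6.63% of all genes. The medians over the 5 comparisons were 1.1, 0.43, -0.76, 0.36 and -0.87, beside all-gene medians of 0.23, -0.06, -0.02, 0.26 and 0.55. In the other comparisons 3 of 16, 3 of 24, 6 of 19 and 7 of 24 were higher and 1, 11, 4 and 11 lower. More were tested against invasive and TME cells than against any other group, so some passed the minimum through the group where they are high. For those BMP and Notch genes a lower value in stressed cells was given in advance. *id1*, an inhibitor of differentiation induced by BMP, stood at 8.03 against 1.12, 3.42, 6.17, 5.57 and 3.76. *her6*, a Hairy-related repressor downstream of Notch, stood at 3.74 against 0.453, 3.35, 1.34, 0.769 and 0.692. *her9*, a repressor of the same family, stood at 3.73 against 1.29, 2.05, 1.90, 2.33 and 1.32. *id1* hardly differed between the depth classes of stressed cells (8.8, 9.32, 7.91 and 7.13), unlike the stress markers. For genes of MAPK feedback the medians were -0.21, -0.03, 0.63, 0.16 and 1.51, with 1, 1, 3, 1 and 9 of 14 tested in each comparison higher and 0, 1, 0, 1 and 1 lower.

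Stressed cells were hardly dividing by their transcripts. *mki67*, a protein of proliferating cells, was above 0 in 3.00% of deeper stressed cells (1.95 to 4.4), against 43.8% of proliferative, 4.84% of invasive, 1.65% of melanocytic, 1.64% of inflammatory and 3.01% of TME cells. *top2a*, the topoisomerase of mitosis, was above 0 in 0.360% of stressed and 44.8% of proliferative cells. All 59 G2/M and all 46 S phase genes tested against proliferative cells were 2-fold lower, with medians of -7.16 and -3.36. Only 7 G2/M genes reached the minimum against each of melanocytic, invasive and inflammatory cells, so most passed it through the proliferative cells. For those genes a lower value against proliferative cells was given in advance. *cenpe*, a mitotic kinesin, had no count in any of the 853 stressed cells, which allows a share of cells with a count of up to 0.352%, a limit on counts and not on expression, and was at least 243-fold lower than in proliferative cells (0.862). *cdc20*, which activates the anaphase-promoting complex, was at least 166-fold lower, both against a floor of 3 counts over the group.

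Against the other groups the cycle lists differed less. For S phase the medians were -0.92 against melanocytic (0 of 36 higher and 16 lower), 0.47 against invasive (4 of 26 higher and 0 lower), -0.14 against inflammatory (0 of 32 and 2) and 0.65 against TME cells (10 of 35 and 2). For G2/M they were 0.22, -0.08 and -0.58 over 7 tested genes each (0, 0 and 0 higher, 0, 1 and 2 lower) and -1.04 against the TME (1 of 15 higher and 8 lower). Of the 10 genes furthest under every other melanoma state, *cdca8*, *ube2c* and *spc25*, a kinetochore protein, stood at 0.00117, 0.00586 and 0.00586, against 1.29, 3.01 and 1.01 in proliferative cells and at most 0.0504 elsewhere. *cntn1a*, a neuronal contactin, stood at 0.00234 against 0.0553, 0.492, 0.018 and 0.0379 in the melanoma states. *stmn1a*, the microtubule protein stathmin, stood at 0.135 against 0.516, 7.05, 0.48 and 0.507 in the melanoma states.

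Genes of ribosome biogenesis were high beside inflammatory and TME cells, while those of respiration were low beside the melanocytic and proliferative states. For 48 ribosome biogenesis genes the medians were 0.42, -0.12, 0.34, 1.03 and 1.52, with 27 of 47 tested 2-fold higher than in inflammatory and 39 of 47 than in TME cells and none lower in any of the 5. Only 1 gene was higher than in proliferative cells and 0 than in melanocytic or invasive cells. For 79 ribosomal proteins they were 0.14, 0.14, 0.37, 0.03 and 0.57, beside 0.23, -0.06, -0.02, 0.26 and 0.55 over all genes. For nuclear genes of oxidative phosphorylation they were -0.54, -0.63, -0.10, 0.27 and 0.39, with 0, 0, 1, 1 and 9 higher and 6, 3, 1, 2 and 3 lower, and the summed level was 152 corrected counts against 219, 238, 154, 127 and 115. For 13 genes encoded in the mitochondrion they were -0.39, 0.07, 0.01, -0.67 and -1.24, with none higher and 0, 0, 0, 4 and 9 lower. With at least 2000 raw UMIs 4 in place of 9 were lower than in the TME (median -0.85).

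Glycolysis genes were lower than in melanocytic cells, with a summed level of 15.7 corrected counts against 27.8, and against 20.1, 18.4, 17.3 and 18.1 in the other groups. For the tricarboxylic acid cycle the medians were -0.30, -0.45, -0.07, 0.31 and 0.52, with 2 genes higher, both against the TME, and 1, 0, 1, 1 and 0 lower. For glycolysis they were -0.77, -0.27, -0.30, 0.16 and -0.49, with 0, 1, 0, 0 and 2 of 18, 18, 19, 19 and 21 tested higher and 4, 0, 3, 3 and 6 lower. For fatty acid oxidation they were -0.25, -0.34, 0.06, 0.26 and 0.67, with 3, 0, 0, 2 and 14 higher and 0, 2, 1, 1 and 2 lower. The medians over all genes were 0.23, -0.06, -0.02, 0.26 and 0.55. For the tricarboxylic acid cycle and fatty acid oxidation the medians against inflammatory and TME cells were thus near those over all genes. The 14 fatty acid oxidation genes higher than in the TME were of 37 tested, beside 35.5% of all genes.

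The study is about lipid droplets, the stores of neutral fat. For lipid droplet genes the medians were 0.50, 0.36, 0.01, 0.47 and 0.84, beside 0.23, -0.06, -0.02, 0.26 and 0.55 over all genes. Of 16, 16, 15, 15 and 19 tested, 4, 2, 2, 5 and 8 were higher and 2, 0, 0, 1 and 5 lower. The share of all genes higher than in the TME was 35.5%. With at least 2000 raw UMIs the list median against melanocytic cells was 0.24, beside 0.14 over all genes. Over all cells the summed level was 3.61 corrected counts against 3.00, 3.25, 3.65, 2.92 and 1.74. *lipea*, the hormone-sensitive lipase that frees fatty acids from droplets, was the member that stood above every other melanoma state, at 0.339 against 0.0812, 0.117, 0.204 and 0.136. *mgll*, which splits the last fatty acid from glycerol, stood at 0.794, above melanocytic (0.281), proliferative (0.525) and inflammatory cells (0.329) and below invasive cells (1.08). *agpat3*, an acyltransferase of phospholipid synthesis, stood at 0.354 against 0.751 in melanocytic and 0.634 in proliferative cells.

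Antigen presentation and interferon genes were low beside melanocytic, invasive, inflammatory and TME cells. Their summed level was close to that of proliferative cells (31.7 against 31.1 corrected counts per cell). Of those tested, 3 of 34 were 2-fold higher and 8 lower than in melanocytic cells, 1 of 28 higher and 5 lower than in proliferative, 1 of 28 and 6 than in invasive, 0 of 33 and 14 than in inflammatory, and 0 of 41 and 24 than in TME cells, with medians of -0.65, -0.16, -0.37, -0.90 and -1.48. More genes were tested against the TME than against any melanoma state, so some passed the minimum through the TME. For those genes a lower value against the TME was given in advance. *ccl19a.1*, a chemokine, had the largest nearest difference after *cenpe* (nearest log2 ratio -3.06), at 0.0305 against 0.25, 0.559, 12.4 and 2.61. *cd74a*, the invariant chain of class II antigen presentation, stood at 0.308 against 1.78 in inflammatory and 46.2 in TME cells. *fxyd1*, a regulator of the sodium pump, and *lsp1*, an actin-binding protein of leukocytes, were also low throughout, at 0.0985 against 0.463 to 1.37 and 0.0492 against 0.18 to 0.476.

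Blood, immune, endothelial and muscle markers were at or near 0 in stressed cells, and keratinocyte and fibroblast markers were far under their TME levels. All 22 macrophage, 5 neutrophil, 7 T and NK cell, 9 endothelial and 7 muscle markers tested were 2-fold lower than in the TME, with medians of -7.55, -6.81, -4.97, -6.56 and -4.62. No neutrophil or T and NK cell marker reached the minimum against any other melanoma state. Most of these markers passed it through the TME, so lower values were given in advance, and the summed levels below describe them better. Both erythrocyte markers tested were lower over all cells (median -1.16) and neither was 2-fold lower with at least 2000 raw UMIs (median -0.79), and no B cell marker reached the minimum. Summed levels per cell were 1.02 for macrophage markers (134 in the TME), 0.0434 for neutrophil markers (4.73), 0.041 for T and NK cell markers (2.46) and 0.0246 for endothelial markers. Keratinocyte markers summed to 12.9 against 118 and had a median of -6.84. Fibroblast markers summed to 5.04 against 60.9 (2 of 18 higher and 15 lower, median -6.70).

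Markers of the other pigment and crest lineages differed by state. Melanophore markers had 10 of 11 genes 2-fold higher and 0 lower than the TME (median 3.45), and summed to 24.8 corrected counts against 94.2 in melanocytic cells and 2.97 in the TME. Iridophore markers summed to 3.56 against 132 in inflammatory cells, where 13 of 15 were lower (median -4.32), and 7 of 15 were higher and 6 lower than in the TME (median 0.68). Xanthophore markers summed to 1.24, with 4 of 8 higher and 2 lower than the TME (median 0.94). Schwann cell markers summed to 5.94 against 17.7 in invasive cells, where 10 of 13 were lower (median -4.72), with 4 of 8 higher and 1 lower than the TME (median 1.43). Over cells of at least 2000 raw UMIs the median of their sum was 5 in stressed and 6 in invasive cells, where 1 cell reached 441. More of them were tested against invasive cells than against the TME, so some passed the minimum through invasive cells. For markers of any of these lists that passed it through the group where they are high, the direction was given in advance.

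The genes at the high end of each comparison were often shared between comparisons and often rested on few cells. *egr4*, an early growth response factor, had log2 ratios of 5.56, 5.51, 5.69, -1.09 and 6.41, but its mean of 0.882 came from 6 stressed cells. *fabp1b.2* was at the high end against melanocytic, proliferative and invasive cells, and *tmsb* against melanocytic cells. *rbm24a*, an RNA-binding protein, stood at 0.256 against 0.00691 in melanocytic cells (log2 ratio 4.99) and was lower than in invasive (1.11) and inflammatory cells (1.03). The gene that the files call *TCIM* (1 of many) stood at 0.418 against 0.0155 in melanocytic cells (4.63), with 63.9% of its stressed counts in 10 cells, and at 4.44 in the TME.

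Other high ends were more broadly spread. *calcr*, the calcitonin receptor, stood at 0.231 against 0.00901 in proliferative cells (4.47) and was above 0 in 140 stressed cells, and *rnd2*, a small GTPase, at 0.278 against 0.021 (3.64) in 161 cells. Against invasive cells *bco2b*, *snai2*, a zinc-finger factor of the neural crest, and *map7a*, a microtubule-associated protein, led, and *snai2* stood at 0.451 against 0.027 (3.94) and *map7a* at 0.539 against 0.045 (3.49). *map7a* was higher still in melanocytic cells (1.73). Against inflammatory cells *rapgef4* (5.22), *slc6a9* (4.14), *mgat4b* (3.95) and *fbln5*, a fibulin of elastic fibers (3.92), led. Against the TME *s100b* (6.91), *megf10*, an engulfment receptor (6.65), *OPN5*, an opsin (6.54), and *egr4* led.

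At the low end of each comparison stood genes of the other group. *tyrp1b* had the lowest ratio to melanocytic cells (-6.63), followed by *alkal2b*, a ligand of ALK family receptors (0.0141 against 0.472), *viml* (0.116 against 3.24), *gch2*, an enzyme of pteridine synthesis (0.213 against 5.76), and *pah*, phenylalanine hydroxylase (0.0445 against 1.11). Against proliferative cells all 5 were genes of cell division, *cenpe*, *ccna2* (cyclin A2), *cdca8* (a subunit of the chromosomal passenger complex), *top2a* and *ube2c* (a ubiquitin-conjugating enzyme of mitosis). Against invasive cells *mbpa*, myelin basic protein, stood at 0.00469 and 4.15 and *s100t*, an S100 protein, at 0.00234 and 1.72. *mpz*, the main protein of peripheral myelin, had no count in stressed cells and was at least 207-fold lower than in invasive cells (0.706), and *proca1* had none against 0.685.

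Against inflammatory cells *lypc* stood at 0.0281 and 10.7 and *apodb*, an apolipoprotein D, at 0.00234 and 1.13. *lgals1l1*, a galectin, had no count and was at least 201-fold lower (0.691), and *aqp1a.1*, a water channel, had none against 0.412. Against the TME *fcer1g*, the signaling chain of Fc receptors in myeloid cells, had no count and was at least 354-fold lower (1.16), and *cyp8b3*, *havcr1*, *timp4.3* and *nt5e* had none against 0.903, 0.805, 0.743 and 0.697.

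Within the stressed state the immediate early and integrated stress response genes ran together, and the endoplasmic reticulum and heat shock lists did not follow them. Over its 833 cells of at least 2000 raw UMIs, described without a test because the cells share one library, the Spearman correlation of the summed immediate early and integrated stress response genes was 0.62. *ddit3* and *fosb* correlated at 0.48 and *fosb* and *junba* at 0.46, while *gadd45ga* correlated with the other markers at 0.20 to 0.26. The early gene sum correlated with the endoplasmic reticulum list at 0.15, with heat shock at -0.27, with the ribosomal share at -0.52, with raw UMIs at -0.39, with the mitochondrial share at 0.22 and with *mitfa* at 0.01. The list sums and single genes are parts of one total of corrected counts per cell, so they are not independent of each other. Raw UMIs and the mitochondrial and ribosomal shares come from the raw counts. The part that this plays in the correlations was not tested.

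The summed ribosomal protein genes moved with depth in the other direction, from 1290 corrected counts under 2000 raw UMIs to 2013, 2629 and 2620. The summed integrated stress response genes averaged 44.2, 48.0, 28.6 and 22.3 in the same classes. The medians of the endoplasmic reticulum list were 11, 8, 10 and 8.5. The stressed cells under 5000 raw UMIs thus carried the highest early gene levels. The pigment gene *pmela* averaged 3.8, 3.64, 3.35 and 5.32 from the shallowest to the deepest class.

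Compared cell by cell with the mean profile of each melanoma state, 762 of the 833 deeper stressed cells (91.5%) were most like the stressed mean, which they helped to make. The margin over the next state was small, with a median difference in correlation of 0.0191 (quartiles 0.0106 and 0.0274). The others were most like the proliferative (31), melanocytic (23), inflammatory (10) and invasive (7) means. In turn 49 of 486 melanocytic (10.1%), 25 proliferative (7.72%), 19 invasive (6.13%) and 14 inflammatory cells (2.55%) were most like the stressed mean.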

How the data were processed

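Single cells of zebrafish tumors were profiled with 10x Genomics 3′ v3 chemistry in 1 library. Per the paper's methods the authors aligned reads with Cell Ranger 6.0.2 (genome build GRCz11 per the submitters' processing notes), removed cells with under 200 genes or over 30% mitochondrial reads and annotated states in R 4.0.5 with Seurat 4.0.2. The deposited expression values are whole-number corrected counts from SCTransform (a score, not raw UMI counts), and a model-corrected value can create or remove low counts in very shallow or very deep cells. The deposited per-cell metadata hold raw UMI counts (341 to 120384, median 8442.5), genes and the percent of mitochondrial and ribosomal reads. The files name genes by symbol only. No doublet caller was run here, and male and female cells were kept together. The 6 bulk libraries hold no cell states and were not used here.

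From the 20141 genes and 3968 cells, Python 3.11.15 with numpy 2.4.6, scipy 1.17.1, pandas 2.3.3 and matplotlib 3.10.9 computed mean corrected counts, shares of cells with exact Clopper-Pearson 95% intervals, and log2 ratios of shares of summed corrected counts with 0.5 added (genes of at least 50 corrected counts). The calculation was tested on simulated data. The text names the 4 marker genes, the 15 genes with the highest and 10 with the lowest ratio to every other melanoma state and the 5 at each end of each comparison (at least 200 corrected counts, clone-like names counted only, and 1 gene that the rule named not reported here), and some list members of highest or lowest median ratio or needed role. The members, the 27 pathway lists and the 13 marker lists were chosen with earlier results of these data known. Alternatives were other cells, depths, scalings, added counts and minimums.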

Additional observations from a re-analysis of the deposited data

How the results depend on the processing

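All of this rests on 1 library of 6 pooled fish, so the spread between fish cannot be measured, and no sample could be left out. No paired analysis was possible because the states come from 1 library. Corrected counts carry no sampling error that could be recovered, and raw UMIs per gene were not used here. Of the gene counts recomputed, 78 stayed within 1.5 times their first value and 30 did not. With cells of 5000 to 20000 raw UMIs, 650 genes were 2-fold higher than in melanocytic and 302 than in proliferative cells, and 68 were 1.5-fold higher than in every other melanoma state. With 5 added to each sum, 295 genes were higher than in proliferative and 298 than in invasive cells, and 72 than in every other state. With a minimum of 200 corrected counts, higher and lower genes numbered 469 and 306 (melanocytic), 222 and 335 (proliferative), 170 and 283 (invasive), 610 and 365 (inflammatory), 2163 and 1301 (TME), and 69 and 86 (every other state). With a minimum of 1 they numbered 3160 and 2863, 1464 and 3715, 2052 and 2903, 3750 and 3277, 6907 and 5614, and 359 and 1410, a change that follows from the number of genes admitted.

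Thinning every cell to 6000 corrected counts lowered the shares of stressed cells above 0 to 76.5% for *gadd45ga*, 80.2% for *ddit3*, 80.3% for *fosb* and 93.8% for *junba*. The clone-named gene *si:dkey-193p11.2* had a smallest log2 ratio of 1.04 over all cells, but -1.86 with at least 2000 raw UMIs, -2.26 with 5000 to 20000, -1.78 after thinning and -2.35 without its 10 highest stressed cells. The median of the Gadd45 list against invasive cells was -0.015 at 5000 to 20000 raw UMIs in place of 0.63, and that of the G2/M list against the TME was 0.059 after thinning in place of -1.04. The causes were not tested. Of the list medians recomputed, 442 moved by less than 1.5-fold, 16 moved by more and 2 turned.

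Alternatives chosen after seeing the data were depth classes and the removal of the 10 highest cells. With 2000 to 5000 raw UMIs the medians of the immediate early list were 3.00 (melanocytic), 2.55 (proliferative), 0.85 (invasive) and 0.88 (inflammatory), and those of the Gadd45 list 2.88, 2.60, 2.41 and 2.00, while the smallest ratios were 1.99 for *gadd45ga*, 1.12 for *fosb* and 1.16 for *junba*. Above 20000 raw UMIs the immediate early median against melanocytic cells was 0.16, the endoplasmic reticulum and heat shock medians against invasive cells (18 cells) were -1.31 and -0.56, the Gadd45 median against proliferative cells was 1.05, and the smallest ratios were -0.50 for *gadd45ga*, -0.11 for *ddit3* and -0.89 for *fosb*. Without the 10 highest cells the smallest ratio was -3.76 for *fabp1b.2* and 0.60 for *bco2b*.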
